A study of Mus musculus with 24 samples.

Results

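Collagen genes were taken as every gene of the deposited count table whose symbol has the form Col, a number, a and a number, which gave 44 of 46078 genes. The 32 that were over 0.5 CPM (the reads of a gene scaled to 1e6 gene counts of its library) in at least 6 of the 24 libraries are described here, and they are among 15456 genes that passed this filter. By class they are 8 of 11 fibrillar genes, 8 of 8 basement membrane genes, 5 of 9 fibril-associated genes and 11 of 16 others. The libraries are polyadenylated RNA from the ventricular apex of male C57BL/6 mice of 10 weeks, sequenced without strand information, and the series is titled as a day 5 profile. The 4 groups of 6 hearts were compared. Uninjured vehicle hearts were wild type (WT), got no diphtheria toxin and received PBS (WT_PBS), and uninjured pyridostigmine hearts were the same with pyridostigmine (PYR), a cholinesterase inhibitor (WT_PYR). Injured vehicle hearts (DTR_PBS) and injured pyridostigmine hearts (DTR_PYR) carried the label DTR, had diphtheria toxin-mediated injury and received PBS or PYR. The sources used here do not name the cells that carry the toxin receptor, its promoter or the doses of toxin and drug. DTR and toxin always occur together, so their effects cannot be told apart. Every library has its own animal tag and was treated as 1 animal. Levels below are TMM-scaled CPM, in which the total gene count that the reads are divided by is first multiplied by the library's TMM factor, a correction for RNA composition. The factors ran from 0.821 to 0.987 in WT_PBS, 0.88 to 0.984 in WT_PYR, 0.929 to 1.3 in DTR_PBS and 0.943 to 1.21 in DTR_PYR, so this scale lowers injured against uninjured libraries. Shares of gene counts are not scaled this way.

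Collagens are triple helices of 3 chains, and the class of a chain decides the structure it builds. Fibrillar chains form the rope-like fibrils that give heart muscle its tensile strength, network chains form the basement membrane around each cardiomyocyte and capillary, and fibril-associated chains sit on the surface of fibrils and link them to other matrix. In the heart, fibroblasts make most fibrillar collagen and lay down a scar after muscle is lost, while endothelial and mural cells make much of the basement membrane. In whole-tissue RNA, a higher number of collagen-making cells and more collagen RNA per cell cannot be told apart.

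Gene counts per library ran from 1.88e6 to 37.8e6, and mitochondrially encoded genes held 4.59 to 25.6% of them. Hbegf, the mouse gene of the growth factor that serves as the toxin's receptor in other species, lay between 18.2 and 26.8 CPM in WT_PBS and between 105.2 and 166.6 CPM in DTR_PBS. Libraries 4, 5 and 6 of DTR_PYR stood apart from libraries 1, 2 and 3 of their group. Their Hbegf was 19.3, 23.3 and 25.8 CPM, against 171.7, 154.9 and 118 CPM in the other three, and their mitochondrial share was 12.7 to 17.9% against 4.59 to 6.03%. Nppb, a natriuretic peptide gene of stressed cardiomyocytes, was 331.9, 413.1 and 639.5 CPM in those 3 libraries and 2761 to 3182 CPM in the other three. Myl2, the ventricular myosin light chain, was nevertheless low in all 6 DTR_PYR libraries, at 1787 to 3330 CPM against 6848 to 9602 CPM in WT_PYR. Hbegf of those 3 libraries was thus near the uninjured level and their Myl2 near the injured level, and whether their labels are right was not tested. DTR_PYR stands below for the libraries labelled so. All 3 carry the tag letter V, as does DTR_PYR 3, and no source used here explains the letters U and V. Each injured group has 2 U and 4 V libraries and each uninjured group 4 U and 2 V. Counts of collagen genes under drug, and the values of the main genes, are given with and without the 3 libraries.

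Collagen genes together held 0.230 ± 0.072% of gene counts in WT_PBS, 0.264 ± 0.045% in WT_PYR, 0.900 ± 0.322% in DTR_PBS and 0.607 ± 0.454% in DTR_PYR (mean ± SD, n = 6 each). The lowest DTR_PBS library, at 0.534%, was above the highest uninjured library, at 0.338%. The DTR_PYR libraries ran from 0.271 to 1.44%, so they spanned uninjured and injured levels. Libraries 4, 5 and 6 were the low ones, at 0.271 to 0.305%, and the mean without them was 0.924 ± 0.461% (SD, n = 3). The balance of the classes also differed between groups. Fibrillar genes held 0.0686% of counts in WT_PBS and basement membrane genes 0.127%, while in DTR_PBS the fibrillar share was 0.542% and the basement membrane share 0.266%. Basement membrane reads outnumbered fibrillar reads in every uninjured library and in DTR_PYR 4, 5 and 6, and fibrillar reads were the larger part in every DTR_PBS library and in DTR_PYR 1, 2 and 3. Fibril-associated genes were a small part everywhere, at 0.0030% in WT_PBS and 0.0135% in DTR_PBS.

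**Figure D1:**
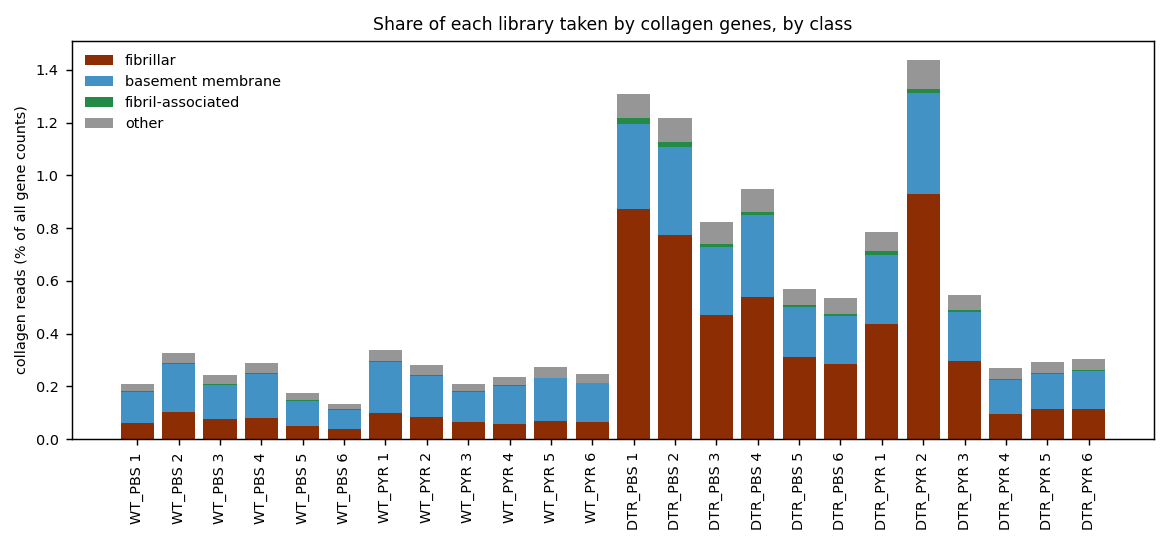
Share of all gene counts held by collagen genes in each library (vertical axis, percent), stacked by class, for 6 libraries in each of 4 groups. All DTR_PBS bars reach at least 0.534%, and DTR_PYR 4, 5 and 6 end at 0.271 to 0.305%, within the range of the uninjured libraries.

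Levels of different genes were compared per length of the gene's exons, as RPKM (TMM-scaled CPM divided by the length of the union of exons in kilobases). In WT_PBS the 2 main basement membrane chains led, with Col4a2 at 87.8 ± 23.1 and Col4a1 at 81.8 ± 20.8 RPKM (SD, n = 6), and their ranges overlapped. Col1a1 followed at 31.1 ± 11.9, Col6a1 at 27.8 ± 5.0, Col3a1 at 23.6 ± 7.5 and Col15a1 at 20.4 ± 5.2 RPKM, neighbours that also did not differ beyond their spread. In DTR_PBS the order was Col1a1 at 207.9 ± 59.4, Col3a1 at 177.1 ± 73.9, Col4a2 at 139.2 ± 19.4, Col4a1 at 128.5 ± 23.2 and Col1a2 at 68.8 ± 24.4 RPKM. Here the ranges of Col1a1, from 132.0 to 271.1, and Col4a2, from 109.4 to 161.5, still overlapped. The order depends on the length used. Per length of the longest transcript, the means in DTR_PBS were 312.5 for Col3a1, 230.1 for Col1a1, 159.8 for Col1a2, 145.0 for Col4a1 and 142.8 for Col4a2, and in WT_PBS Col4a1 led at 92.3, before Col4a2 at 90.1, Col3a1 at 41.6 and Col1a1 at 34.4. By exon union, Col12a1 moved from rank 30 of the 32 in WT_PBS, at 0.100 RPKM, to rank 18 in DTR_PBS, at 1.64 RPKM. The lowest rank in WT_PBS was held by Col7a1, the anchoring fibril chain of skin, at 0.0656 RPKM. All 32 genes were found in the GENCODE vM21 annotation, 10 of them with another gene over part of their exons and 0 with over 10% of exon bases covered this way. For Col4a3 the antisense gene C430014B12Rik covers 5.65% of exon bases, and reads of the pair cannot be told apart without strand.

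In injured against uninjured vehicle hearts (DTR_PBS minus WT_PBS), 20 of the 32 collagen genes rose and 4 fell at an adjusted p under 0.05 (edgeR quasi-likelihood test, Benjamini-Hochberg over the 15456 genes). Of all genes tested, 21.3% rose and 21.6% fell. The median log2 difference was 0.71 over the collagen genes and 0.0094 over all genes. For 14 collagen genes all 6 injured libraries were above all 6 uninjured ones and for 3 all were below, against 11.2% and 11% of all genes. In CPM without TMM factors these were 19 and 2, against 16.7% and 4.9% of all genes: Col4a2, Col4a5, Col5a3, Col6a2 and Col18a1 then also had no overlap, and Col13a1 overlapped. Within the libraries tagged U, 16 rose and 4 fell, against 18.8% and 19.4% of all genes, and within those tagged V 18 rose and 3 fell, against 9.3% and 7.01%. Under pyridostigmine (DTR_PYR minus WT_PYR), 11 of 32 rose and 0 fell, against 8.06% and 4.17% of all genes. The median was then 0.42 against 0.042 over all genes. With limma voom 7 rose and 0 fell, against 2.56% and 2.53% of all genes. Without DTR_PYR 4, 5 and 6, 17 rose and 4 fell, while 17.5% and 15.4% of all genes did. Under drug, within the libraries tagged U, 17 rose and 3 fell, against 15% and 13.3% of all genes. Within those tagged V, 0 of the 32 and 0% of all genes passed, in a comparison of DTR_PYR 3 to 6 with WT_PYR 2 and 3.

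**Figure D2:**
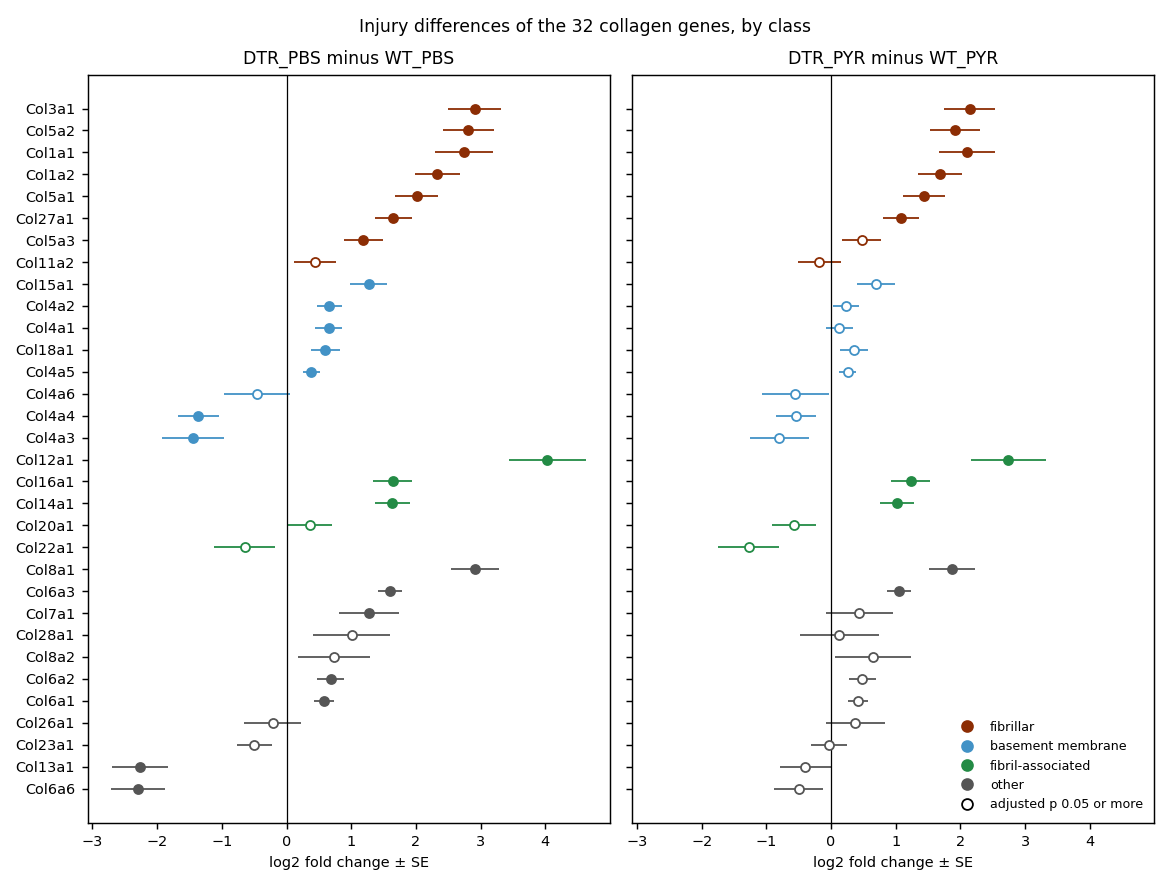
Fitted log2 fold change ± SE (horizontal axis) of each of the 32 collagen genes, for injury without drug (left) and injury under pyridostigmine (right), coloured by class, with filled points for an adjusted p under 0.05. Col12a1 is farthest right in both panels, at 4.03 and 2.74, and Col6a6, Col13a1, Col4a3 and Col4a4 are the filled points left of 0 in the left panel.

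The fibrillar genes moved most uniformly. In DTR_PBS minus WT_PBS, 7 of 8 rose and 0 fell, against 21.3% and 21.6% of all genes. The class median was 2.17 on the log2 scale. Col1a1 and Col1a2 encode the chains of type I collagen, the main scar collagen, and Col3a1 encodes type III, its partner in early scar. Col1a1 had a lowest, median and highest level of 90.8, 203.3 and 315.9 CPM in WT_PBS, of 190.7, 216.0 and 312.1 CPM in WT_PYR and of 866.1, 1485 and 1779 CPM in DTR_PBS. In DTR_PYR libraries 1 to 6 it was 1159, 2899, 798.9, 252.2, 258 and 407.4 CPM. All injured vehicle libraries were above all uninjured ones, and DTR_PYR 4 and 5 fell inside the WT_PYR range. The log2 difference was 2.74 ± 0.45 (SE) without drug (6.7-fold, adjusted p = 5.91e-05, edgeR) and 2.1 ± 0.44 under drug (adjusted p = 0.00452). Without DTR_PYR 2, the highest library, the difference under drug was 1.36.

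Col1a2 lay between 125.4 and 200.3 CPM in WT_PBS (median 182.3) and between 554.7 and 1300.0 CPM in DTR_PBS (median 800.1). In DTR_PYR it ran from 218.0 to 1352 CPM with a median of 375.0, against 133.1 to 251.2 CPM and a median of 149.3 in WT_PYR. Injured and uninjured vehicle hearts were apart, with a log2 difference of 2.33 ± 0.35 (adjusted p = 3.25e-05, edgeR), and the drug-treated groups overlapped while still differing by 1.68 ± 0.34 (adjusted p = 0.00418).

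Col3a1 rose by an amount that did not differ beyond its SE from that of Col5a2 or Col1a1. Its lowest, median and highest levels were 145.3, 248.0 and 334.9 CPM in WT_PBS, 153.3, 218.8 and 349.2 CPM in WT_PYR, and 981.6, 1510 and 2869 CPM in DTR_PBS. DTR_PYR libraries 1 to 6 held 1493, 2471, 1084, 336.2, 501.3 and 348.8 CPM. DTR_PYR 4 and 6 were inside the WT_PYR range and library 5 was above it. The log2 difference was 2.91 ± 0.41 (7.52-fold, adjusted p = 2.22e-05, edgeR) without drug and 2.14 ± 0.40 (adjusted p = 0.00232) under drug. Col3a1 lies on chromosome 1 from 45311538 to 45349706, on the plus strand (GRCm38). The 250 bases before its start, chr1:45311288-45311537 (RefSeq, GRCm38.p6, plus strand), are shown because this window belongs to one of the strongest risers of the class. Capitals mark matches to 4 motifs, each searched for on both strands. The NF-Y box was searched as CCAAT and the TATA box as TATAAA. The GC box of Sp1 was searched as GGGCGG, and the AP-1 box of Fos and Jun proteins as TGANTCA. No pair of these overlapped in the windows shown, and that of Col3a1 holds 1 TATAAA.
Col3a1: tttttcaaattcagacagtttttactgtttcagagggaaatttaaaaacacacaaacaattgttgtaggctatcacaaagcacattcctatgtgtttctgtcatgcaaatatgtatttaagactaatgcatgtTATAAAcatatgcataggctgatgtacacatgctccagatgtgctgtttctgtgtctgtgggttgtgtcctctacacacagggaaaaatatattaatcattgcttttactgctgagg

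The risers Col1a1, Col5a2, Col12a1 and Col14a1 had no such window in the RefSeq table. Among the 25 described genes with a window there, 16 had risen. Of these 16 genes, 8 had CCAAT (50%, against 33.8% of 32851 windows of all genes) and 11 had GGGCGG (68.8% against 32.7%). TATAAA was found for 1 (6.25% against 12.4%) and TGANTCA for 1 (6.25% against 6.75%). A gene with more than 1 window was counted if any held the motif, while the shares of all genes are of single windows. GGGCGG was also found for 4 of the 6 genes that were not called (66.7%) and 1 of the 3 that fell (33.3%). CCAAT was found for 0 of the 6 and 0 of the 3. These are counts of letters and name no bound factor.

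Type V collagen, which starts and narrows type I fibrils, is built from Col5a1, Col5a2 and Col5a3. Col5a2 ranged from 25.1 to 36.6 CPM in WT_PBS (median 27.9), from 15.7 to 37.4 in WT_PYR (median 26.4) and from 102.8 to 334.6 in DTR_PBS (median 171.3). In DTR_PYR it was 151.6, 255.4, 93.1, 41.1, 51.0 and 34.2 CPM in libraries 1 to 6, and library 6 was the one inside the WT_PYR range. It rose by 2.81 ± 0.40 without drug (adjusted p = 2.22e-05, edgeR) and by 1.92 ± 0.39 under drug (adjusted p = 0.00374), on the log2 scale. Col5a1 had medians of 76.5 CPM in WT_PBS (51.5 to 100.7), 76.2 in WT_PYR (66.4 to 105.3), 316.7 in DTR_PBS (202.6 to 398.9) and 165.7 in DTR_PYR (95.1 to 567.4). It rose by 2.01 ± 0.33 without drug and by 1.44 ± 0.33 under drug. Col5a3 had medians of 28.2 CPM in WT_PBS (14.4 to 55.2) and 77.4 in DTR_PBS (49.2 to 94.2), ranges that overlapped. It rose by 1.19 ± 0.31 without drug (adjusted p = 0.00291, edgeR), and under drug its value of 0.47 ± 0.30 did not pass (adjusted p = 0.306).

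Col27a1, a fibrillar chain best known from cartilage, had medians of 6.21 CPM in WT_PBS (4.42 to 8.96) and 19.4 CPM in DTR_PBS (14.1 to 24.7), with no overlap. It rose by 1.65 ± 0.29 (adjusted p = 9.44e-05, edgeR), and by 1.08 ± 0.28 under drug (adjusted p = 0.0171), a call that was lost without DTR_PYR 1 (adjusted p = 0.0531) or DTR_PYR 2 (adjusted p = 0.0729). Col11a2, also a cartilage chain, was the fibrillar gene that did not pass, with a log2 difference of 0.44 ± 0.32 (adjusted p = 0.276) at medians of 2.59 CPM in WT_PBS and 3.41 CPM in DTR_PBS. Without DTR_PYR 4, 5 and 6, the log2 differences under drug were 2.85 ± 0.33 for Col1a1, 2.33 ± 0.28 for Col1a2, 2.84 ± 0.32 for Col3a1, 2.61 ± 0.32 for Col5a2, 2.07 ± 0.26 for Col5a1 and 1.64 ± 0.26 for Col27a1. Col5a3 then passed at 0.89 ± 0.34 (adjusted p = 0.0453, edgeR). Other cartilage collagens were under the filter. Col2a1, the main chain of cartilage fibrils, had 1 read in all of WT_PBS, 1 in WT_PYR, 23 in DTR_PBS and 4 in DTR_PYR. Col11a1 had 5, 7, 177 and 7 reads in the same order, with 138 of the 177 in 1 library, and Col24a1, a fibrillar chain of bone, had 2, 2, 49 and 14. Of the cartilage and bone markers, 3 of 8 passed the filter: Sox9 rose by 1.73 ± 0.33 (adjusted p = 0.000216) and Runx2 by 2.93 ± 0.50 (adjusted p = 7.94e-05), both by edgeR, and Comp did not pass. Ibsp, a bone matrix gene, had 0 reads in every group, and Matn1 had 0 in DTR_PBS. The summed level of the 8 was 6.15 to 14.6 CPM in WT_PBS and 29.1 to 36.1 CPM in DTR_PBS. Its part in the collagen values was not tested.

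**Figure D3:**
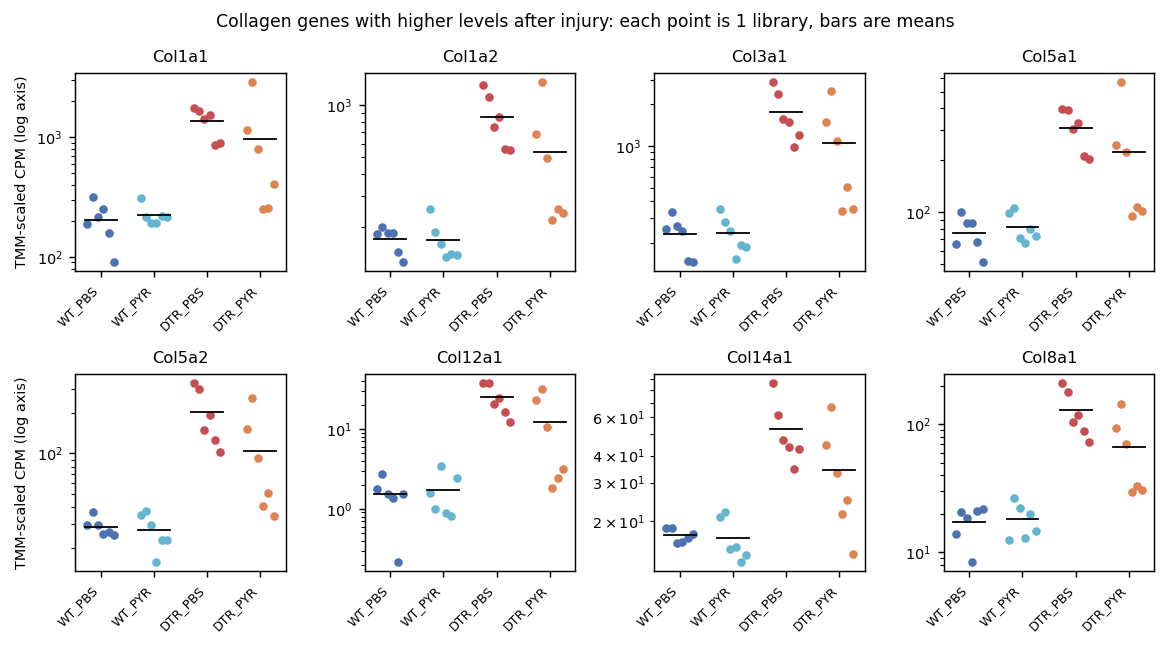
Level in TMM-scaled CPM (log axis) of 8 collagen genes that rose after injury, with 1 point for each library and a bar at the mean of 6 libraries in each group. In most panels DTR_PYR splits into 3 high and 3 low points. For Col3a1 these are 1084 to 2471 CPM and 336.2 to 501.3 CPM.

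Of the 5 fibril-associated genes, 3 rose in DTR_PBS minus WT_PBS and 0 fell, against 21.3% and 21.6% of all genes. The class median was 1.63. The 3 that rose were also among the 11 collagen genes that rose under drug, where 8.06% of all genes rose. Col12a1, a long chain found on fibrils under mechanical load in tendon and in healing tissue, had the largest difference of the 32. It held 0.214, 1.54 and 2.71 CPM (lowest, median, highest) in WT_PBS, 0.823, 1.30 and 3.49 CPM in WT_PYR and 12.3, 22.4 and 38.2 CPM in DTR_PBS. In DTR_PYR libraries 1 to 6 it was 22.9, 31.6, 10.5, 1.83, 2.47 and 3.20 CPM, so libraries 4, 5 and 6 lay within the WT_PYR range and the other three within or near the DTR_PBS range. The log2 difference was 4.03 ± 0.60 without drug (16.4-fold, adjusted p = 2.92e-05, edgeR) and 2.74 ± 0.59 under drug (adjusted p = 0.0053), and 3.66 ± 0.43 under drug without the 3 low libraries (adjusted p = 1.04e-06). With limma voom in place of edgeR the value under drug was 1.60 and did not pass (adjusted p = 0.154).

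Col14a1, a related chain that regulates fibril growth, had narrower groups. It held 15.8 to 18.6 CPM in WT_PBS (median 17.0), 12.9 to 21.98 in WT_PYR (median 15.1), 34.9 to 86.8 in DTR_PBS (median 45.6) and 14.1 to 67.1 in DTR_PYR (median 29.1). Vehicle groups did not overlap and drug groups did. It rose by 1.63 ± 0.27 (adjusted p = 6.23e-05, edgeR) and under drug by 1.02 ± 0.27 (adjusted p = 0.0171). The call under drug was lost without DTR_PYR 1 (adjusted p = 0.0526) or DTR_PYR 2 (adjusted p = 0.0717), and with limma voom (adjusted p = 0.0774). It was 1.53 ± 0.24 without DTR_PYR 4, 5 and 6. Col16a1 had medians of 9.39 CPM in WT_PBS (7.41 to 16.6) and 30.8 CPM in DTR_PBS (21.4 to 42.8). It rose by 1.64 ± 0.30 without drug and by 1.23 ± 0.30 under drug (adjusted p = 0.011, edgeR; 0.102 with limma voom), or by 1.87 ± 0.23 without the 3 libraries. Col20a1, at a log2 difference of 0.36 ± 0.34, and Col22a1, a chain of muscle-tendon junctions, at -0.65 ± 0.47, did not pass. Under drug Col22a1 was at -1.27 ± 0.47 (adjusted p = 0.0743), and without DTR_PYR 4, 5 and 6 it fell, at -2.28 ± 0.69 (adjusted p = 0.0133, edgeR).

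The 8 basement membrane genes split. In DTR_PBS minus WT_PBS, 5 rose and 2 fell, with a median of 0.49. Of all genes 21.3% rose and 21.6% fell, so the count of falls was near that share. Under drug 0 of 8 passed in either direction with all 6 DTR_PYR libraries, against 8.06% and 4.17% of all genes. Col4a1 and Col4a2 build the α1α1α2 network found in nearly all basement membranes. Col4a1 held 386.9, 616.7 and 805.0 CPM (lowest, median, highest) in WT_PBS, 564.1, 682.8 and 968.8 in WT_PYR, 716.8, 1001 and 1153 in DTR_PBS and 583.2, 647.9 and 1296 in DTR_PYR. The groups overlapped, and Col4a1 rose by 0.65 ± 0.21 (1.57-fold, adjusted p = 0.0126, edgeR). Col4a2 rose by 0.66 ± 0.20 (adjusted p = 0.00897), from a median of 584.6 CPM in WT_PBS to 924.2 CPM in DTR_PBS. Under drug their differences were 0.13 ± 0.21 and 0.23 ± 0.20 (adjusted p = 0.721 and 0.457). With DTR_PYR 4, 5 and 6 left out, Col4a2 passed at 0.57 ± 0.21 (adjusted p = 0.0371) and Col4a1 did not at 0.42 ± 0.23 (adjusted p = 0.17). The pair lies head to head on chromosome 8, Col4a1 from 11198423 to 11312826 on the minus strand and Col4a2 from 11312805 to 11449287 on the plus strand. Their first exons share 22 bases, chr8:11312805-11312826 (GRCm38.p6, plus strand), shown because both genes rose, with a GC box in capitals.
Col4a1/Col4a2: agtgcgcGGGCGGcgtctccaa

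Col4a3, Col4a4 and Col4a5 encode the α3α4α5 network, best known from the filter of the kidney and from Alport syndrome. Here Col4a5 rose while Col4a3 and Col4a4 fell. Col4a4 held 7.94, 10.3 and 14.7 CPM in WT_PBS, 6.995, 9.55 and 12.2 in WT_PYR, 1.77, 3.50 and 6.13 in DTR_PBS and 2.07, 4.69 and 11.7 in DTR_PYR. Every injured vehicle library was below every uninjured vehicle library, and the drug-treated groups overlapped. The log2 difference was -1.37 ± 0.32 without drug (adjusted p = 0.00125, edgeR) and -0.54 ± 0.31 under drug (adjusted p = 0.239). Col4a3 had medians of 3.81 CPM in WT_PBS (1.25 to 6.24) and 1.33 CPM in DTR_PBS (0.886 to 2.05), which overlapped, and differed by -1.45 ± 0.48 (adjusted p = 0.0162). Without DTR_PYR 4, 5 and 6, the difference under drug was -2.56 ± 0.62 for Col4a3 (adjusted p = 0.00271) and -1.47 ± 0.35 for Col4a4 (adjusted p = 0.00237). For Col4a3 this value rests on 5, 0 and 4 reads in DTR_PYR 1, 2 and 3. Col4a4 and Col4a3 also lie head to head, on chromosome 1 from 82448423 to 82586849 (minus strand) and from 82586921 to 82722059 (plus strand). The 71 bases between their starts, chr1:82586850-82586920 (GRCm38.p6, plus strand), are shown as the counterpart of the other pair, and hold 0 of the 4 motifs.
Col4a3/Col4a4: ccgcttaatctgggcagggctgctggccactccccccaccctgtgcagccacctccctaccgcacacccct

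Col4a5 had medians of 37.7 CPM in WT_PBS (33.2 to 47.3) and 47.6 CPM in DTR_PBS (38.4 to 63.3) and rose by 0.38 ± 0.13 (adjusted p = 0.024, edgeR). Leaving out 1 library at a time ended this call in 5 of 12 cases, with an adjusted p of at most 0.0744. Within the V libraries its value was 0.163 (adjusted p = 0.638). Col4a6, at -0.46 ± 0.51, did not pass. Col15a1 and Col18a1 encode chains that link basement membranes to the matrix outside them, and the Col18a1 product is the source of endostatin. Col15a1 held 80.6 to 165.3 CPM in WT_PBS (median 133.3), 102.9 to 198.4 in WT_PYR (median 140.1), 195.6 to 457.2 in DTR_PBS (median 312.2) and 120.2 to 521.8 in DTR_PYR (median 175.1). It rose by 1.27 ± 0.29 (adjusted p = 0.00108) without overlap, and its value under drug was 0.70 ± 0.29 (adjusted p = 0.105), or 1.19 ± 0.28 without DTR_PYR 4, 5 and 6 (adjusted p = 0.00227). Col18a1 rose by 0.60 ± 0.22 (adjusted p = 0.0295) with overlapping groups, a call that 6 of 12 single omissions ended (adjusted p at most 0.0747) and that was not made within the U libraries (0.55, adjusted p = 0.12). It also rose under drug without DTR_PYR 4, 5 and 6, by 0.78 ± 0.22 (adjusted p = 0.00831). Summed endothelial and mural markers were lower in DTR_PBS than in WT_PBS, while 5 of the 8 basement membrane genes rose. The summed level of 8 endothelial markers was 1163 to 1450 CPM in WT_PBS and 659.4 to 882.9 CPM in DTR_PBS, with 7 of 8 lower by edgeR (21.6% of all genes were lower). That of 8 smooth muscle and pericyte markers was 926.9 to 1569 and 600.7 to 781.2 CPM. Of these 8 markers, 3 were lower and 1 higher by edgeR, against 21.6% and 21.3% of all genes. The part of these markers in the basement membrane values was not tested.

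**Figure D4:**
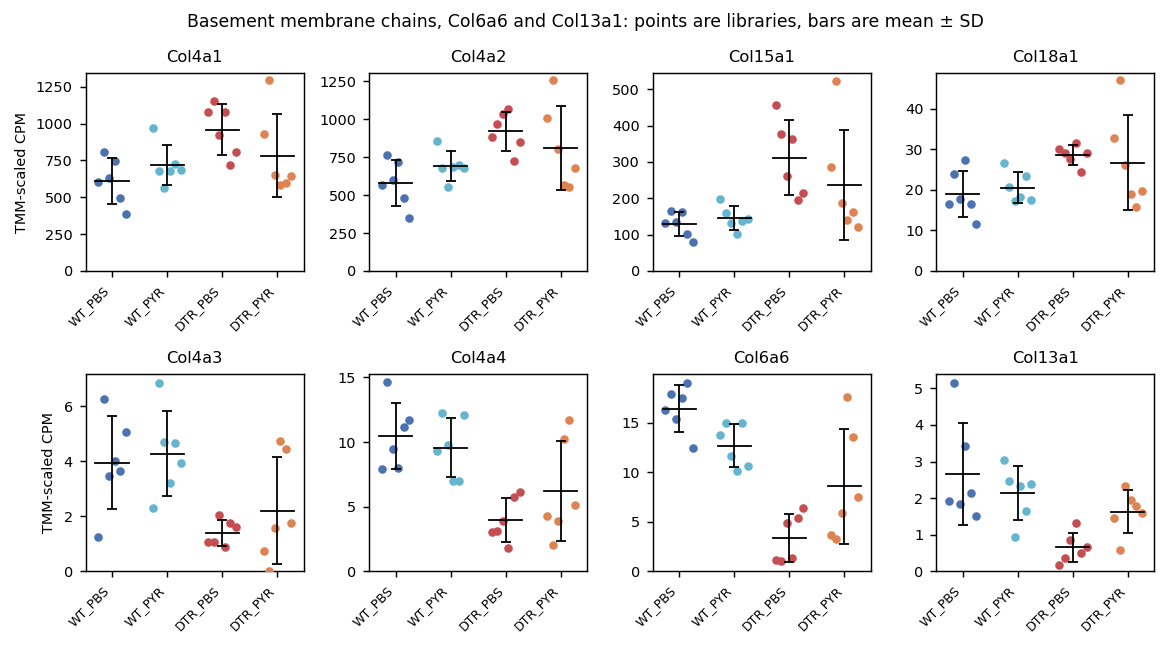
Level in TMM-scaled CPM (linear axis) of 6 basement membrane genes and of Col6a6 and Col13a1, with 1 point for each library and the mean ± SD of 6 libraries in each group. Col4a1, Col4a2, Col15a1 and Col18a1 are higher in DTR_PBS than in WT_PBS, and the 4 genes of the lower row are lower, Col4a4 without overlap at 1.77 to 6.13 against 7.94 to 14.7 CPM.

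The 11 other genes held both strong risers and the largest fallers, with 5 up, 2 down and a median of 0.68 in DTR_PBS minus WT_PBS. Of all genes 21.3% rose and 21.6% fell, so the count of falls was near that share. Type VI collagen forms beaded filaments around cells, built from Col6a1 and Col6a2 with one more chain from Col6a3 or from the related Col6a4, Col6a5 or Col6a6. Col6a3 held 38.1, 47.2 and 63.2 CPM (lowest, median, highest) in WT_PBS, 38.6, 49.7 and 65.2 in WT_PYR, 104.1, 159.4 and 172.1 in DTR_PBS and 77.6, 99.6 and 165.9 in DTR_PYR. The injured libraries were above the uninjured ones under both vehicle and drug, including DTR_PYR 4, 5 and 6. It rose by 1.60 ± 0.19 without drug (adjusted p = 6.58e-06, edgeR, the smallest of the 32) and by 1.05 ± 0.19 under drug (adjusted p = 0.00165), or by 1.35 ± 0.20 without DTR_PYR 4, 5 and 6. All DTR_PYR libraries were above all WT_PYR libraries for 2 of the 32, Col6a3 and Col8a1, and for 2.19% of all genes. All were below for 0 of the 32 and for 3.18% of all genes. In CPM without TMM factors Col3a1 joined them (3 of 32, against 3.64% of all genes above and 1.66% below).

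Col6a1 and Col6a2 rose less. Col6a1 had medians of 120.6 CPM in WT_PBS (88.1 to 152.3) and 176.6 CPM in DTR_PBS (158.8 to 212.3) and rose by 0.58 ± 0.15 (adjusted p = 0.00369, edgeR). Col6a2 rose by 0.68 ± 0.21 (adjusted p = 0.009). Within the U libraries neither passed, at 0.41 and 0.51 (adjusted p = 0.123 and 0.143). Under drug both missed the threshold, at 0.41 ± 0.15 (adjusted p = 0.0763) and 0.48 ± 0.21 (adjusted p = 0.114), and without DTR_PYR 4, 5 and 6 both passed, at 0.61 ± 0.17 and 0.79 ± 0.23. Col6a6, an alternative to Col6a3 in the trimer, moved the other way. It held 12.5, 16.9 and 19.1 CPM in WT_PBS, 10.1, 12.7 and 14.96 in WT_PYR and 0.992, 3.10 and 6.40 in DTR_PBS, with no overlap. In DTR_PYR it was 3.68, 3.25 and 5.84 CPM in libraries 1 to 3 and 17.6, 13.5 and 7.52 CPM in libraries 4 to 6. It fell by 2.30 ± 0.41 on the log2 scale without drug (adjusted p = 0.00013), and the value under drug was -0.50 ± 0.38 (adjusted p = 0.396), or -1.61 ± 0.47 without the 3 libraries (adjusted p = 0.00997). Reads of the remaining alternative chains were few, with 0, 0, 11 and 6 for Col6a4 and 30, 14, 18 and 7 for Col6a5 in WT_PBS, WT_PYR, DTR_PBS and DTR_PYR.

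Type VIII collagen is a short-chain network collagen of vessel walls. Col8a1 held 8.33, 19.5 and 21.8 CPM in WT_PBS, 12.3, 17.4 and 26.5 in WT_PYR, 72.1, 110.9 and 212.3 in DTR_PBS and 29.5, 51.6 and 144.3 in DTR_PYR. Both injured groups were above both uninjured groups in every library. The log2 difference was 2.91 ± 0.37 without drug (7.51-fold, adjusted p = 1.12e-05, edgeR) and 1.87 ± 0.36 under drug (adjusted p = 0.00273). The difference under drug was 2.51 ± 0.32 without DTR_PYR 4, 5 and 6. Its partner Col8a2 was near the filter, at medians of 0.460 CPM in WT_PBS and 0.781 CPM in DTR_PBS, and did not pass at 0.73 ± 0.56. Col7a1 rose by 1.28 ± 0.46 (adjusted p = 0.0264) from a median of 0.653 to 1.81 CPM without overlap, and the call was lost without WT_PBS 1 (adjusted p = 0.0569) or DTR_PBS 2 (adjusted p = 0.0567), with no filter on low counts (adjusted p = 0.0592), and within either tag letter (adjusted p = 0.163 for U and 0.143 for V).

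Col13a1, a transmembrane collagen known from the neuromuscular junction, fell. It held 1.502, 2.04 and 5.16 CPM (lowest, median, highest) in WT_PBS, 0.940, 2.37 and 3.05 in WT_PYR, 0.172, 0.583 and 1.33 in DTR_PBS and 0.591, 1.70 and 2.34 in DTR_PYR. Vehicle groups did not overlap on this scale. The log2 difference was -2.27 ± 0.44 without drug (adjusted p = 0.000249, edgeR) and -0.40 ± 0.39 under drug (adjusted p = 0.522; -0.59 ± 0.56 without DTR_PYR 4, 5 and 6). Within the libraries tagged V the difference without drug was -1.45 (adjusted p = 0.0636). The 250 bases before Col8a1 and before Col13a1 are set side by side as those of a strong riser and a strong faller, at chr16:57754738-57754987 and chr10:61979109-61979358 (RefSeq, GRCm38.p6, both minus strand, written 5′ to 3′ along the gene). That of Col8a1 holds 4 GC boxes and that of Col13a1 holds 1 TATAAA.
Col8a1: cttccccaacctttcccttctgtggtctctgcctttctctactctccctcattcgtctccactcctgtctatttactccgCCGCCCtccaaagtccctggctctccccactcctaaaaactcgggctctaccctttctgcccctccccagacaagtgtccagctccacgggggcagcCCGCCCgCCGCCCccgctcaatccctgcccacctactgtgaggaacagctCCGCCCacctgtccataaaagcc
Col13a1: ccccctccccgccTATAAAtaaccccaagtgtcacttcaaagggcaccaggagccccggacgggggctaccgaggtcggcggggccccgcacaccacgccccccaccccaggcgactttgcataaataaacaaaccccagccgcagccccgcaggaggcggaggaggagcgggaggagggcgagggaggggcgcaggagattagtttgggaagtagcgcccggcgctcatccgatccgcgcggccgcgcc

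The other 3 genes of the class did not pass in any comparison. For DTR_PBS minus WT_PBS, Col23a1, a transmembrane chain, was at -0.50 ± 0.28, Col26a1 at -0.21 ± 0.44 and Col28a1, a chain of nerve sheaths, at 1.01 ± 0.59 on the log2 scale. Of 8 Schwann cell markers 7 passed the filter. The list summed to 31.7 to 36.0 CPM in WT_PBS and 26.6 to 39.0 CPM in DTR_PBS. By edgeR 1 was higher and 0 lower, against 21.3% and 21.6% of all genes. The collagens under the filter that are not named above were Col9a1, Col9a2, Col9a3, Col10a1, Col17a1, Col19a1 and Col25a1. Col9a1 had 1 read in all 24 libraries, Col17a1, the hemidesmosome collagen of skin, had 22, 12, 43 and 21 reads in WT_PBS, WT_PYR, DTR_PBS and DTR_PYR, and Col25a1, a transmembrane chain, had 30, 24, 7 and 13.

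Pyridostigmine without injury (WT_PYR minus WT_PBS) moved no collagen gene past the threshold. The edgeR test called 0 of 32 and 0% of all genes. At an unadjusted p under 0.05 it counted 0 collagen genes and 481 of all genes (3.11%), and limma voom and DESeq2 also called 0 collagen genes (DESeq2 called 0.00647% of all genes lower). The smallest collagen p was 0.219, for Col4a2 at 0.25 ± 0.20, and the median log2 difference was 0.074. In injured hearts (DTR_PYR minus DTR_PBS) edgeR again called 0 of 32 and 0% of all genes, with 10 collagen genes and 2991 of all genes (19.4%) at an unadjusted p under 0.05. DESeq2 called Col13a1 and Col6a6 higher (1.11% of all genes were higher and 0.453% lower), and limma voom called the same pair higher and 7 genes lower (4.06% and 7.38% of all genes). The 7 were Col5a2, Col7a1, Col8a1, Col11a2, Col12a1, Col14a1 and Col16a1. This comparison shares its DTR_PBS libraries with the injury comparison without drug.

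The values in injured hearts depended on which DTR_PYR libraries were used. Col8a1 had a log2 difference of -0.97 ± 0.35 (adjusted p = 0.16, edgeR), Col5a2 of -0.96 ± 0.37 (adjusted p = 0.18), Col12a1 of -1.12 ± 0.52 (adjusted p = 0.242) and Col1a1 of -0.50 ± 0.42 (adjusted p = 0.517). Col13a1, at 1.63 ± 0.45, and Col6a6, at 1.43 ± 0.41, were higher in value (adjusted p = 0.131 for both). Without DTR_PYR 2, which had the highest collagen share, 10 collagen genes were lower and 3 higher, against 7.97% and 7.63% of all genes. The 10 were Col1a1, Col1a2, Col3a1, Col5a1, Col5a2, Col6a3, Col8a1, Col12a1, Col14a1 and Col15a1, from -0.64 for Col6a3 to -1.68 for Col12a1, and the 3 were Col4a4, Col6a6 and Col13a1, at 0.87, 1.58 and 1.77. Without DTR_PYR 4, 5 and 6, 0 collagen genes and 0% of all genes passed, with values of -0.33 ± 0.33 for Col8a1, -0.27 ± 0.33 for Col5a2, -0.20 ± 0.41 for Col12a1, 0.25 ± 0.34 for Col1a1, 1.45 ± 0.61 for Col13a1 and 0.32 ± 0.47 for Col6a6. Whether pyridostigmine changed the effect of injury was tested as an interaction, which called 0 of 32 and 0% of all genes by edgeR, with 4 collagen genes at an unadjusted p under 0.05 against 7.96% of all genes. DESeq2 and limma voom called 0 collagen genes for it, and DESeq2 called 0.0453% of all genes higher and 0.0129% lower. The interaction was 1.87 ± 0.58 for Col13a1 and 1.79 ± 0.56 for Col6a6 (adjusted p = 0.563 each), or 1.68 ± 0.72 and 0.69 ± 0.57 without the 3 libraries.

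Chains that meet in a trimer or on a fibril were compared as log2 ratios of their reads within each library, with 9 ratios in 4 comparisons. Of the 36 exact permutation tests (two-sided, over every arrangement of 6 against 6, smallest possible p = 0.00216), 2 passed after Benjamini-Hochberg adjustment, both in DTR_PBS minus WT_PBS. The Col5a1/Col5a2 ratio was 1.38 ± 0.27 in WT_PBS and 0.70 ± 0.31 in DTR_PBS (SD, n = 6, adjusted exact p = 0.039), with every injured library below every uninjured one. The Col12a1/Col14a1 ratio was -3.68 ± 1.04 and -1.13 ± 0.39 (adjusted exact p = 0.039), with every injured library above. The mean Col4a1/Col4a2 ratio hardly differed, at 0.074 ± 0.040 in WT_PBS and 0.050 ± 0.183 in DTR_PBS (difference -0.025, exact p = 0.747). Its range was wider in DTR_PBS, from -0.164 to 0.293 against 0.027 to 0.144 in WT_PBS. The Col1a1/Col1a2 ratio was 0.18 ± 0.38 and 0.69 ± 0.18, and its difference of 0.51 missed the adjusted threshold (exact p = 0.0152, adjusted 0.109). The Col15a1/Col18a1 ratio differed by 0.60 (exact p = 0.0108, adjusted 0.109). With 5 libraries against 6, the differences were 2.14 to 2.75 for Col12a1/Col14a1 and -0.76 to -0.60 for Col5a1/Col5a2. Groups without overlap at 6 against 6 stay apart when 1 library is left out, so direction and separation could not change. The smallest p that 5 against 6 can give is 0.00216, which Col12a1/Col14a1 had in all 12 omissions, and Col5a1/Col5a2 had 0.00216 to 0.00866. Adjusted over 36 tests these missed the threshold in 11 of 12 omissions for each (at most 0.0779 and 0.156), so for Col12a1/Col14a1 the loss says nothing about stability.

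**Figure D5:**
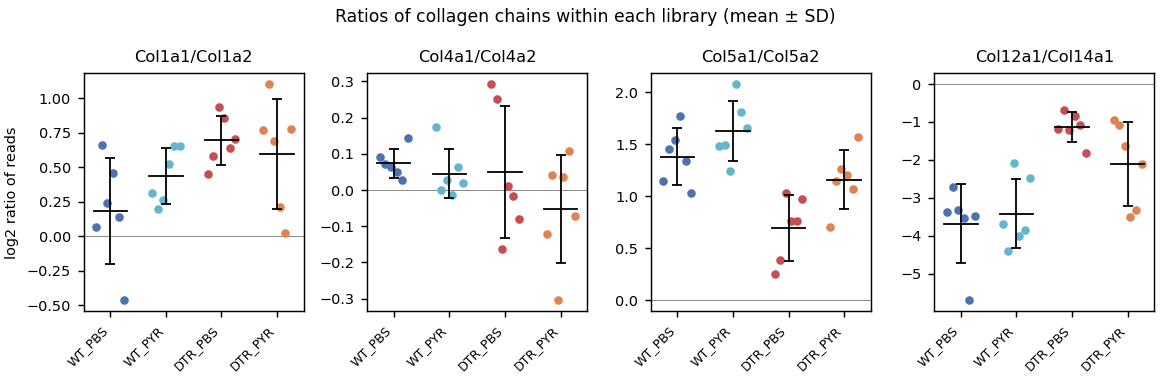
Log2 ratio of reads of 2 collagen chains within each library (vertical axis), with 1 point for each library and the mean ± SD of 6 libraries in each group. Col5a1/Col5a2 is lower and Col12a1/Col14a1 higher in DTR_PBS than in WT_PBS without overlap, and Col4a1/Col4a2 stays near 0 in all groups.

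Genes that fold, cut and crosslink collagen were read from 4 lists. Of 23 folding and modification genes, 11 rose and 3 fell in DTR_PBS minus WT_PBS, and 4 rose and 0 fell under drug, with medians of 0.42 and 0.36. Of all genes 21.3% rose and 21.6% fell without drug, and 8.06% and 4.17% under drug. When DTR_PYR 4, 5 and 6 were left out, 11 rose and 1 fell under drug, against 17.5% and 15.4%. P4ha3, a subunit of prolyl 4-hydroxylase, held 0.0712 to 0.814 CPM in WT_PBS and 2.40 to 11.6 CPM in DTR_PBS and rose by 4.34 ± 0.76 (adjusted p = 9.92e-05, edgeR). P4ha1, which encodes the main subunit of that enzyme, rose by 0.71 ± 0.18, Plod3, a lysyl hydroxylase, by 1.001 ± 0.20 and Serpinh1, the collagen chaperone HSP47, by 1.04 ± 0.23. Colgalt2, a collagen galactosyltransferase, fell by 1.62 on the log2 scale, from 9.71 to 14.8 CPM in WT_PBS to 1.77 to 6.00 CPM in DTR_PBS. P4ha2 and P3h4 fell by 0.47 and 0.54. Under drug P4ha3 was at 2.84 ± 0.77, Plod3 at 0.64 ± 0.20 and Serpinh1 at 0.68 ± 0.23, and these passed. Without the 3 libraries they were at 3.91 ± 0.63, 1.07 ± 0.17 and 1.17 ± 0.19.

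Of 15 genes for processing and crosslinking, 10 rose and 2 fell without drug (median 1.11), and 8 rose and 1 fell under drug (median 0.84), against the same shares of all genes. Under drug 10 rose and 3 fell without DTR_PYR 4, 5 and 6, against 17.5% and 15.4% of all genes. Lox, a lysyl oxidase that crosslinks collagen and elastin, held 3.43 to 13.6 CPM in WT_PBS (median 5.21) and 53.3 to 196 CPM in DTR_PBS (median 125.6), and 6.04 to 158.5 CPM in DTR_PYR (median 36.3). It rose by 4.30 ± 0.65 without drug (19.7-fold, adjusted p = 3.48e-05, edgeR) and by 3.12 ± 0.63 under drug (adjusted p = 0.00373), or by 4.05 ± 0.41 without the 3 libraries. Its relatives Loxl2 and Loxl4 both rose by 2.43, with SEs of 0.40 and 0.38, and Adamts2, which removes the N-propeptide of fibrillar procollagens, rose by 1.61 ± 0.24. Adamts3 and Pxdn, the peroxidasin that crosslinks type IV collagen, fell by 0.76 and 0.36. Pxdn also fell under drug, by 0.43 on the log2 scale (adjusted p = 0.042), and by 0.48 without the 3 libraries (adjusted p = 0.0352).

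Of 14 fibril regulators, 4 rose and 2 fell both without drug (median 0.20) and under drug (median 0.54). Without drug these counts were not far from the 21.3% and 21.6% of all genes. Under drug 8.06% of all genes rose and 4.17% fell. The counts under drug were again 4 and 2 without DTR_PYR 4, 5 and 6 (median 0.060), against 17.5% and 15.4% of all genes. Fn1, the fibronectin on which collagen fibrils assemble, rose by 3.54 ± 0.60 and Postn, a matricellular protein gene of activated fibroblasts, by 3.04 ± 0.40, from medians of 17.5 to 122.8 CPM for Postn. Bgn, a small proteoglycan, rose by 1.79 ± 0.30 and Sparc, a collagen-binding glycoprotein, by 1.12 ± 0.26, while Sparcl1 and Prelp fell by 0.91 and 0.51. Of 11 receptor and uptake genes, 6 rose and 1 fell without drug (median 0.88) and 3 rose under drug (median 0.57). Without the 3 libraries 4 rose and 1 fell under drug. The shares of all genes beside these counts are those just given. Mrc2, the endocytic collagen receptor, rose by 1.48 ± 0.27, Lair1, an inhibitory collagen receptor of immune cells, by 2.30 ± 0.47, Itga11, a collagen-binding integrin chain, by 1.11 ± 0.30 and Ddr1, a collagen-activated kinase, by 0.999 ± 0.21. Cd36, a scavenger receptor that also binds collagen, fell by 0.85.

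Markers of several cell types also differed between WT_PBS and DTR_PBS. In this comparison 21.3% of all genes rose and 21.6% fell. Of 8 activated fibroblast markers, of which Postn is also in the list of fibril regulators, 7 rose in DTR_PBS minus WT_PBS, and their summed level was 119.5 to 171.3 CPM in WT_PBS, 123.7 to 192.2 in WT_PYR, 478.2 to 1051 in DTR_PBS and 157.1 to 1058 in DTR_PYR. Libraries 4, 5 and 6 of DTR_PYR were at 160.8, 192.9 and 157.1 CPM, against 649.3, 1058 and 625.2 CPM for libraries 1, 2 and 3. Of 7 resting fibroblast markers 1 rose (Pdgfra, 1.04 ± 0.24) and 2 fell (Gsn and Scara5), with summed levels of 1795 to 2808 CPM in WT_PBS and 785.2 to 1523 CPM in DTR_PBS. All 8 macrophage markers rose, with sums of 171 to 250.5 CPM in WT_PBS, 514.7 to 1950 CPM in DTR_PBS and 229 to 264.3 CPM in DTR_PYR 4, 5 and 6. Of 8 cardiomyocyte markers 5 fell, with sums of 80320 to 85490 and 24200 to 66350 CPM in the vehicle groups. For mesothelium 0 of 7 tested markers changed, and for epithelium 1 of 4 rose, with Krt5 and Krt15 at 0 reads in WT_PBS. For skeletal muscle 2 of 3 tested markers rose and 1 fell. The summed level of the 7 skeletal muscle markers was nevertheless lower, at 1836 to 3366 CPM in WT_PBS and 278.4 to 1711 CPM in DTR_PBS. The part of any of these in the collagen differences was not tested.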

How the data were processed

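RNA-seq of 24 mouse hearts, 6 in each of 4 groups, was used. The authors deposited raw read counts per gene, an abundance-filtered count table of 15140 genes that holds 34 collagen genes, and depth-normalised counts. Per the submitters' processing notes, HTSeq, the aligners TopHat2 2.1.1, TopHat and Bowtie2, the build GRCm38 and the packages edgeR and DESeq were used, with no roles stated. The deposited depth-normalised table was taken as signal, and it was used to check that its factors matched median-ratio factors to within 1.8e-07. Tests used the deposited unfiltered counts.

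Genes over 0.5 CPM in at least 6 libraries were fitted with edgeR 4.0.16 (TMM, quasi-likelihood, R 4.3.3), with 1 coefficient for each group and no covariate, and p-values were adjusted over all 15456 genes at a threshold of 0.05. SEs are the log2 difference divided by the square root of F. Fitted values use the default prior count of edgeR, and chain ratios an offset of 0.5 reads. Printed levels are CPM with TMM factors, while the filter used CPM without them. RPKM used the union of exons in GENCODE vM21. DESeq2 1.42.0, limma 3.58.1 (voom), other scalings, filters and sample sets were alternatives. The fits were tested on simulated counts with 100 genes raised 2-fold and 100 raised 4-fold in DTR_PBS. No other simulated gene differed between groups, while 21.3% of all genes rose and 21.6% fell in the data. The shares recovered and false in the simulation may therefore not hold for the data. In DTR_PBS minus WT_PBS 38% and 87% of these were called up, and 2.34% of all calls were false. A gene that did not pass may thus still differ. Replicate numbers follow the order of the sample list and pair nothing.

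The members, gene lists and tests were chosen with earlier results of these data known. All 32 described members could be named, and from each pathway list up to 4 genes that rose and 3 that fell in DTR_PBS minus WT_PBS, by adjusted p. Sox9, Runx2, Comp, Ibsp, Matn1, Pdgfra, Gsn, Scara5 and the reads of members under the filter were named after their values were seen.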

Additional observations from a re-analysis of the deposited data

Results flagged for a closer look

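In each group of 6, the highest or lowest library was marked when its gap to the nearest one exceeded 0.625 of the group's range. Chance marks about 1 group in 20, and 12 of 168 groups were marked. DTR_PYR 2 had 4 of these: Col1a1 at 2899 CPM (next 1159), Col5a1 at 567.4 CPM (next 246.6), Col26a1 at 2.661 CPM (next 1.12) and, as the lowest, Col20a1 at 0.2957 CPM (next 1.44). DTR_PBS 4, the shallowest library, had 2: Col22a1 at 1.772 CPM (next 1.03) and Col26a1 at 0 CPM (next 0.7562). The others were Col1a1 at 312.1 CPM in WT_PYR 1 (next 218.8), Col4a5 at 41.11 CPM in DTR_PYR 4 (next 48.96) and Col7a1 at 1.912 CPM in DTR_PYR 1 (next 0.887). Among the log2 chain ratios, Col12a1/Col14a1 was -5.71 in WT_PBS 5 (next -3.525), Col4a3/Col4a4 was -2.648 in WT_PBS 1 (next -1.585) and Col8a1/Col8a2 was 9.182 in WT_PYR 2 (next 5.555).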

How the results depend on the processing

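No paired analysis was possible because the replicate numbers follow the order of the sample list and no animal tag occurs in more than 1 group. With limma voom the collagen genes that rose in DTR_PYR minus WT_PYR numbered 7 in place of 11, and in DTR_PYR minus DTR_PBS 2 were higher and 7 lower in place of 0. DESeq2 called 2 higher in DTR_PYR minus DTR_PBS. For DTR_PYR minus WT_PYR, 17 rose and 4 fell without DTR_PYR 4, 5 and 6 together, 17 and 3 within U and 0 rose within V. Leaving out 1 library at a time gave 17 to 20 rises and 4 falls in DTR_PBS minus WT_PBS, 9 to 13 rises and 0 to 1 falls in DTR_PYR minus WT_PYR, and 0 to 3 higher and 0 to 10 lower genes in DTR_PYR minus DTR_PBS, with 3 and 10 without DTR_PYR 2. It gave log2 ratio differences of 2.144 to 2.745 for Col12a1/Col14a1 and -0.7567 to -0.5987 for Col5a1/Col5a2. The other counts, for WT_PYR minus WT_PBS and the interaction, were 0 under each alternative run, and no result reversed. Scaling by total counts moved the median of all genes by 0.375 in DTR_PBS minus WT_PBS, by 0.147 in DTR_PYR minus WT_PYR and by -0.150 in DTR_PYR minus DTR_PBS. In DTR_PBS minus WT_PBS the collagen median was then 1.061 and the median of all genes 0.384, so collagen genes stood 0.677 above it, against 0.7 with TMM. The collagen share without mitochondrially encoded genes in the total was 0.973% in DTR_PBS and 0.658% in DTR_PYR. Genes near 0.5 CPM, such as Col7a1, Col8a2 and, in DTR_PYR, Col22a1, rest on few reads in the shallow libraries. Each edgeR p-value sets a group difference against a spread between animals that is estimated over all groups fitted. Why calls differ between tools and libraries was not tested.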
